A study of Homo sapiens with 4 samples.

Results

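H3K27ac, the histone acetylation that marks active promoters and enhancers, was examined at 4 genes grouped as B-lineage commitment factors: PAX5, EBF1, FOXO1 and the coactivator POU2AF1. The members were chosen by name and not by their peaks, though with earlier results of these data known. The peaks counted were every H3K27ac peak overlapping the gene body, with 10 kb added on each side, by at least 1 bp on hg19. This gave 71 of the 44626 peaks called in REH and 71 of the 74504 peaks called in 697. REH and 697 are established cell lines of B-cell precursor acute lymphoblastic leukemia (BCP-ALL), both grown in RPMI medium with serum and with no drug treatment named, and each gave a single ChIP-seq library and an input library as its background. REH carries the ETV6/RUNX1 fusion and has lost its other ETV6 allele, and 697 lacks the fusion. Each group is therefore a single cell line with no replicate, no test across cultures was possible, and fusion status, cell line and library cannot be told apart. After duplicate tags were removed, 65241657 ChIP tags remained in REH and 68911420 in 697.

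These genes act in B-cell development. EBF1 (early B-cell factor) opens chromatin at B-lineage genes and switches on PAX5, a paired-domain factor that activates B-cell genes and shuts down genes of other lineages. FOXO1 is a forkhead factor, held in check by PI3K signaling, that is needed for recombination of immunoglobulin genes in precursor B cells. POU2AF1 (also OCA-B or BOB1) does not bind DNA by itself but is recruited by octamer-binding factors as a B-cell coactivator. Genes that define a cell type often carry H3K27ac in broad domains that reach well beyond the promoter.

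Every one of the 4 genes carried peaks in both cell lines, and both lines held a peak within 2 kb of the 5′ end of each gene. Peaks in both lines were also common among genome tiles of the same width with a peak in either line. At the PAX5 and EBF1 widths they were found in 7445 of 9706 and 4725 of 5718 tiles. At the FOXO1 and POU2AF1 widths the counts were 10412 of 14442 and 17377 of 28312. No such share was computed for the 5′ ends. The balance between the lines differed from gene to gene. PAX5 and FOXO1 had more bases under peaks in REH, and EBF1 and POU2AF1 had more in 697, although the direction at EBF1 turned when bases were scaled to the size of each list. At PAX5, peaks covered 38987 bp in REH and 19525 bp in 697, which is 17.6% and 8.80% of the window, a REH to 697 ratio of 1.997. At EBF1, peaks covered 118110 bp in REH and 169813 bp in 697, or 27.8% and 39.96% of the window, a REH to 697 ratio of 0.70. At FOXO1 the covered bases were 34271 bp in REH and 25409 bp in 697, or 26.0% and 19.2%, a REH to 697 ratio of 1.35. At POU2AF1 they were 8576 bp in REH and 20033 bp in 697, or 17.5% and 40.9%, a REH to 697 ratio of 0.43. Summed over the 4 windows, 199944 bp lay under REH peaks and 234780 bp under 697 peaks, a REH to 697 ratio of 0.85 that lies between those of the single genes.

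**Figure D1:**
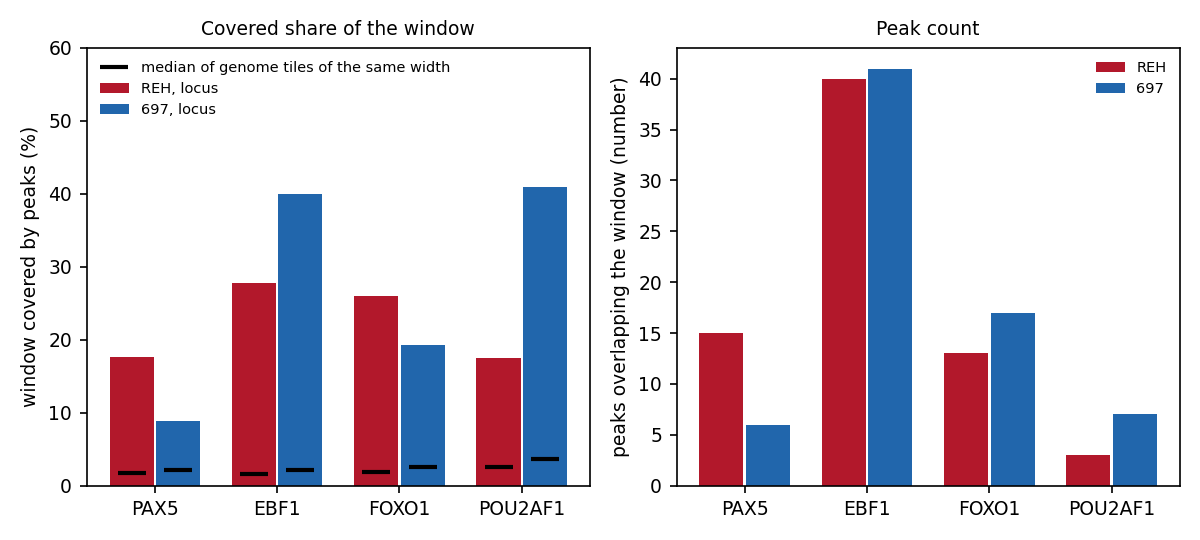
Share of each window covered by H3K27ac peaks (left, percent of bases) and number of peaks overlapping it (right) in REH (red bars) and 697 (blue bars), 1 library each. Black lines mark the median of genome tiles of the same width with a peak in either line; all 8 bars on the left lie above them, the lowest being PAX5 in 697 at 8.80%.

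The criterion for calling a locus different was a peak in just 1 of the lines, or covered bases at least 2 times apart. By this rule 1 of the 4 loci was called, POU2AF1, with 697 higher, and PAX5 fell just short of the threshold. Calls were common in the genome: among tiles as wide as the POU2AF1 window (49 kb) with a peak in either line, 42% were called with 697 higher and 22.2% with REH higher. For tiles of the PAX5 width (222 kb) these shares were 33.9% and 21.5%, for the EBF1 width (425 kb) 30.9% and 20.3%, and for the FOXO1 width (132 kb) 36.3% and 22.1%. The number of called loci is thus no larger than this background, which is not a like one. It includes tiles with a peak in just 1 line, which the rule always calls, while all 4 loci had peaks in both. Most tiles were also less covered: at the POU2AF1 width the median tile had 1249 bp in REH and 1823 bp in 697. The share called among tiles with peaks in both lines and covered like the loci was not computed. The 697 list covers 101.5 Mb in all and the REH list 67.9 Mb. Where tiles had peaks in both lines, the median ratio of REH over 697 was 0.75 to 0.79 depending on the width. Against that median, the ratio of 1.997 at PAX5 was matched or exceeded by 11.6% of tiles and that of 1.35 at FOXO1 by 21.6%, whereas 25.2% of tiles had a ratio as low as at POU2AF1 and 45.5% one as low as at EBF1. These shares count every tile with peaks in both lines, however few its covered bases. At the PAX5 width the median tile with a peak in either line had 3735 bp in REH and 4901 bp in 697. Ratios were not compared among tiles covered like the loci. When covered bases were expressed as a share of all bases covered in the same line, the ratios became 2.98 at PAX5, 1.04 at EBF1, 2.02 at FOXO1 and 0.64 at POU2AF1. PAX5 and FOXO1 were then called with REH higher, and POU2AF1 was not called. The share of tiles called after this scaling was not computed, so these calls cannot be set against a background. The direction at EBF1 therefore depends on the scaling, and those at the other 3 genes did not flip with it.

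Measured against tiles of equal width, all 4 loci had more covered bases than the median tile in both lines. EBF1 ranked highest, and PAX5 in 697 ranked lowest. Only 4 of 5718 tiles of 425 kb (0.0700%) had as many covered bases in REH as the EBF1 window, and 7 (0.122%) had as many in 697. The PAX5 window was matched by 1.63% of tiles in REH and by 17.2% in 697. The FOXO1 window was matched by 0.796% and 5.76%, and the POU2AF1 window by 5.38% and 1.84%, in the same order. These tiles were laid end to end without regard to genes, while the windows were drawn around genes, so the shares describe the loci and were not tested.

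**Figure D2:**
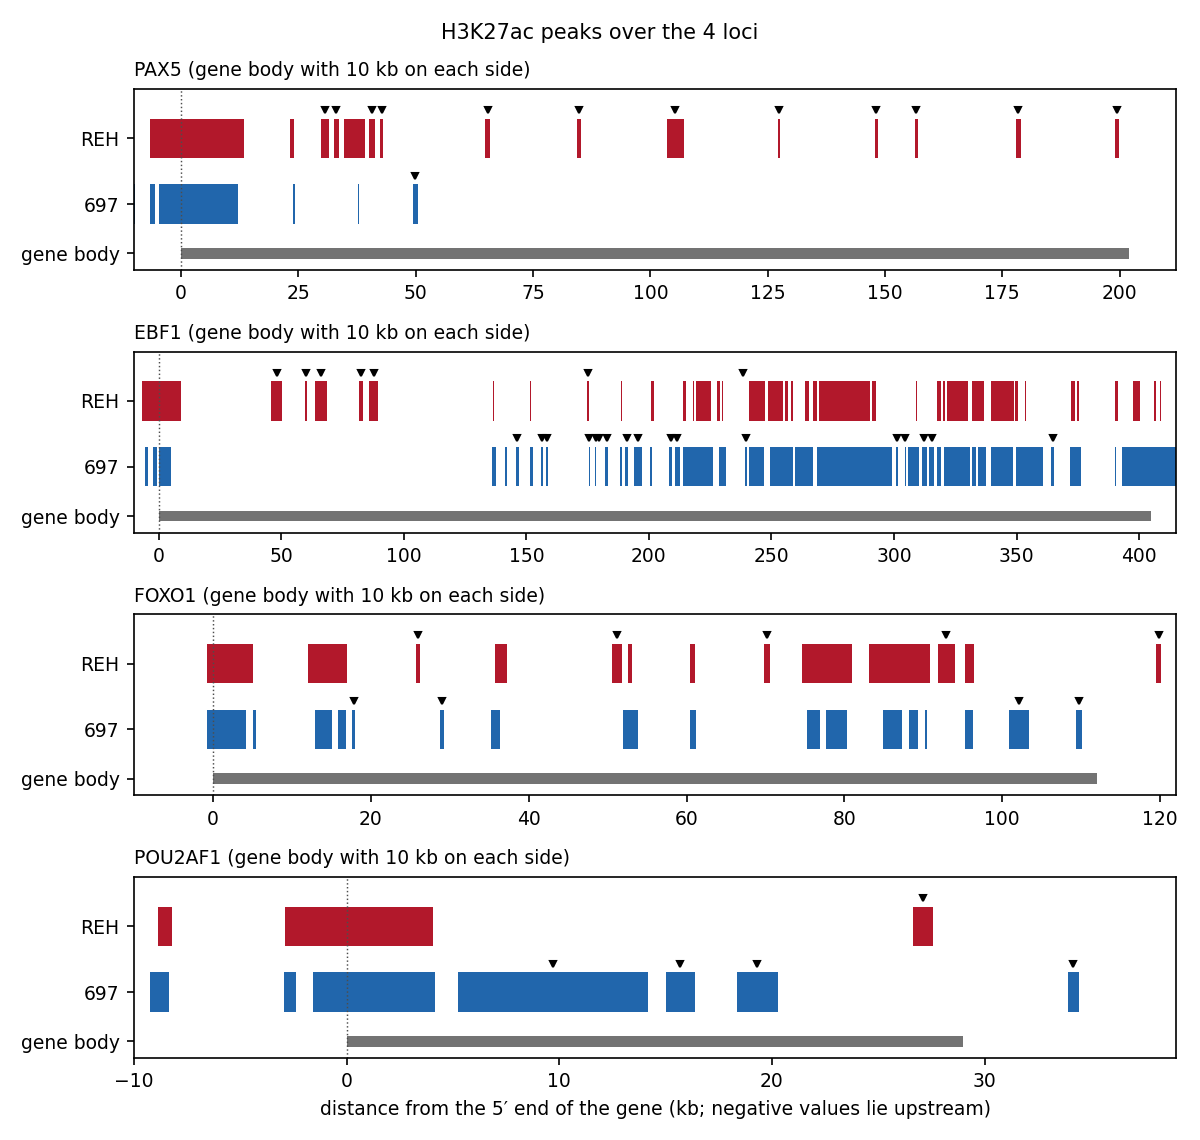
H3K27ac peaks of REH (red) and 697 (blue) over each locus, by distance from the 5′ end of the gene in kb, with the gene body in grey and triangles over peaks without a peak of the other line over them. Both lines have peaks at or near the 5′ ends, REH alone marks the far part of PAX5, 697 is empty from 4.85 to 135.8 kb in EBF1, and in POU2AF1 697 has 3 peaks where REH has a stretch without any. A sixth 697 peak at the upstream edge of PAX5 shows only the 94 bp that lie in the window.

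PAX5 (ENSG00000196092) had 15 peaks in REH and 6 in 697. In each line a single broad domain lay over the 5′ end. The REH domain of 19964 bp, at chr9:37021645-37041608, was the 32nd longest of all REH peaks, and the 697 domain of 16859 bp, at chr9:37022806-37039664, was the 63rd longest of all 697 peaks. The 697 domain lay wholly inside the REH domain, which was covered by 697 peaks over 89.5% of its length. The lines parted further into the gene. Outside the first 10% of the gene body, 14 REH peaks covered 19023 bp, whereas 3 peaks of 697 covered 1542 bp (REH over 697, 12.3). A group of 5 REH peaks stood between 29.8 and 43.1 kb from the 5′ end, the longest of them 4540 bp at chr9:36995764-37000303, over which 697 had a single peak of 322 bp. From 50.4 kb to the 3′ edge of the window, a stretch of 161.6 kb, the 697 list held no peak, and REH had 8 peaks there of 375 to 3634 bp. The longest of these, at chr9:36927883-36931516, was centered 105.3 kb from the 5′ end and 53085 bp from the nearest 697 peak. Conversely, 697 had only 1 peak in the window without a REH peak over it, of 950 bp. Of the PAX5 bases under 697 peaks, 94.5% were also under REH peaks, while 47.3% of those in REH were under 697 peaks. The 697 coverage at this gene was thus nearly contained in that of REH.

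EBF1 (ENSG00000164330), the longest of the 4 genes, had 40 peaks in REH and 41 in 697, with a median length of 1140 bp and 1553 bp. The 5′ end lay in a broad domain in REH, of 15875 bp at chr5:158518026-158533900. In 697 the same place held 3 shorter peaks of 4630, 1553 and 1279 bp, which together covered 47.0% of the REH domain. Farther in, 697 had no peak for 130.9 kb, from 4.85 to 135.8 kb from the 5′ end. In that stretch REH had 5 peaks of 915 to 4779 bp that summed to 15140 bp. The 3 longest of them, of 4347 bp at chr5:158476666-158481012, 4779 bp at chr5:158458391-158463169 and 3554 bp at chr5:158437493-158441046, lay 41142, 58985 and 46273 bp from the nearest 697 peak. The longest empty stretch in REH, 47.0 kb, lay almost wholly in the empty stretch of 697 and held no complete 697 peak.

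Toward the 3′ end of EBF1 the order was the opposite. In the 3′ part of the gene body, beyond its midpoint, peaks covered 40.9% of the bases in REH and 67.8% in 697. The densest stretch was the same in both lines: part 7 of 10 equal parts of the gene body, counted from the 5′ end, was covered to 73.7% in REH and 88.4% in 697. The longest REH peak at the 4 genes, 20781 bp at chr5:158236640-158257420 and 25th in the REH list, reached from there into part 8 and lay wholly under a 697 peak of 30872 bp at chr5:158227610-158258481, the 7th longest of its list. A second very long 697 peak, of 32583 bp at chr5:158101381-158133963 and the 5th longest of all 697 peaks, ran over the 3′ end of EBF1 and on beyond the window. REH had 5 separate peaks under it, which covered 22.2% of its length, so that within the 10 kb after the gene end REH peaks covered 11.3% of the bases and 697 peaks 100%. When peaks no more than 5 kb apart were joined, a distance chosen after the data were seen, 17 peaks of 697 formed a run of 125889 bp between 239.3 and 365.2 kb from the 5′ end, the 14th longest of 41795 such runs in 697. The longest REH run in the window held 7 peaks over 36109 bp and ranked 96th of 32773. No REH peak lay over 17 of the 697 peaks, and 16 of these were shorter than 2 kb. The exception was 3241 bp long at chr5:158329832-158333072.

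FOXO1 (ENSG00000150907) had 13 peaks in REH and 17 in 697, so that REH had fewer peaks but more covered bases, with 2636 bp per peak against 1495 bp. The positions were similar. At the 5′ end lay a REH peak of 5819 bp, at chr13:41235977-41241795, and a 697 peak of 4928 bp, at chr13:41236806-41241733, which was the longest 697 peak of this window. A further cluster lay toward the 3′ end in both lines. The longest REH peak, of 7812 bp at chr13:41150130-41157941, stood 83.1 to 90.9 kb from the 5′ end and had 3 separate 697 peaks under it that covered 48.5% of its length. A neighboring REH peak of 6454 bp likewise had 2 peaks of 697 under it. Part 8 of 10 of the gene body was the most covered in both lines, at 81.8% in REH and 49.2% in 697. Peaks of at least 2 kb without a counterpart were found on both sides: in REH 2233 bp at chr13:41146951-41149183, 1240 bp from the nearest 697 peak, and in 697 2527 bp at chr13:41137642-41140168, 4439 bp from the nearest REH peak. Of the FOXO1 bases under 697 peaks, 74.5% were under REH peaks, and 55.2% of those in REH were under 697 peaks.

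POU2AF1 (ENSG00000110777), the shortest gene, had 3 peaks in REH and 7 in 697. Over the 5′ end REH had a peak of 6969 bp, at chr11:111246955-111253923, and 697 had one of 5748 bp, at chr11:111246847-111252594, which ended close to the same place inside the gene. Beyond that point REH had no peak for 22.6 kb. In 697 that stretch held 3 peaks of 8956, 1390 and 1917 bp, and the longest of them, at chr11:111236814-111245769, was the longest peak found in only REH or only 697 at any of the 4 genes. It began 1186 bp from the REH peak over the 5′ end. Beyond the first 10% of the gene body, peaks covered 2106 bp in REH and 13517 bp in 697 (REH over 697, 0.16), whereas the first 10% was covered to 100% in both lines. The 1 REH peak in the rest of the gene body that lay apart from the 5′ end was 960 bp long, at chr11:111223414-111224373, where 697 had none. Just upstream of the gene the lines were alike, with 3570 bp in REH and 3063 bp in 697 within 10 kb.

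**Figure D3:**
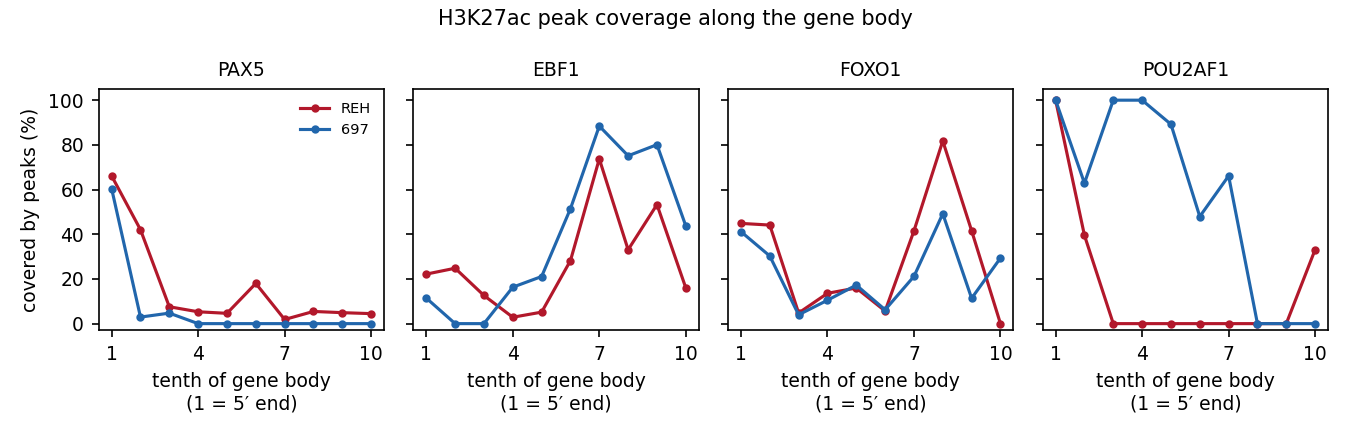
Percent of bases under H3K27ac peaks in each of 10 equal parts of the gene body, counted from the 5′ end, in REH (red) and 697 (blue), 1 library each. The lines start close together at PAX5, FOXO1 and POU2AF1 and part farther in: from part 4 on, PAX5 has peaks in REH only, and from part 3 to part 7 POU2AF1 has peaks in 697 only.

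At the 5′ ends themselves the lines differed little at 3 of the 4 genes. Within 2 kb on each side of the gene end, peaks covered 100% in REH and 100% in 697 at PAX5, 69.9% and 68.3% at FOXO1, and 100% and 89.9% at POU2AF1. EBF1 differed most, with 100% in REH and 79.3% in 697, where the gap between the peaks of 4630 and 1553 bp fell near the gene end. The ends were given to 1 kb only. With 1 kb on each side the EBF1 values were 100% and 58.6%, and with 5 kb 100% and 67.1%, so that the lower value in 697 did not depend on the width. Over the first 10% of the gene body, the ratio of REH over 697 was 1.10 at PAX5, 1.94 at EBF1, 1.09 at FOXO1 and 1.00 at POU2AF1.

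Because both lines carried a peak at or near the start of each gene, the bases just before the start are shown for the 3 genes that the RefSeq promoter table holds, in order to show what kind of promoter these genes have. Each run is 250 bases, 5′ to 3′ on the minus strand, on which all 4 genes lie in GENCODE v44, with positions on GRCh38.p14, which were not combined with the hg19 peaks. Capitals mark CpG dinucleotides.
PAX5, chr9:37034269-37034518: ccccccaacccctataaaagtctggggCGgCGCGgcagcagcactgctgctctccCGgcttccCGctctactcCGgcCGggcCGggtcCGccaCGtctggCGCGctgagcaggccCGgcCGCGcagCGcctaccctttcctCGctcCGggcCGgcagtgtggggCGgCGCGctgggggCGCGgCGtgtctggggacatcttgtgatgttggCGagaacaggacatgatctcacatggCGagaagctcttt
EBF1, chr5:159097957-159098206: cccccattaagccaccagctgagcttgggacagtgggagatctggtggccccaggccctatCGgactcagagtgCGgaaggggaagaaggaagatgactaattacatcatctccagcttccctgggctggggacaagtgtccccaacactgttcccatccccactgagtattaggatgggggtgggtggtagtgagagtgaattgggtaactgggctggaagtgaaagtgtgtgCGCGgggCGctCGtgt
FOXO1, chr13:40666642-40666891: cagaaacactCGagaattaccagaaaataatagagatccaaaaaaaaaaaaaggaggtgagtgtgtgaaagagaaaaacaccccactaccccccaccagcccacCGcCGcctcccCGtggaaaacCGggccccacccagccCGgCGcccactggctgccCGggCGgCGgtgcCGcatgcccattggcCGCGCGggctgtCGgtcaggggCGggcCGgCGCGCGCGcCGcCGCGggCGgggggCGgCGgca
PAX5 and FOXO1 each have 27 CpGs in these bases, and 17.7% of the 35116 promoters of the table have at least as many. The GC content is 69.6% at PAX5 and 67.2% at FOXO1. The EBF1 stretch has 6 CpGs, below the median of 11 over all promoters, and a GC content of 57.2%. The start that the table uses for EBF1 lies 1960 bp inside the gene as RefSeq bounds it, so this stretch is not the sequence before the outermost EBF1 start. Of 5 motifs of B-lineage factors, searched on both strands, none occurred in any of the 3 stretches: TCCCNNGGG of the EBF family (found in 7.84% of all promoters), the octamer ATGCAAAT that recruits POU2AF1 through its partners (1.63%), GTAAACA of FOXO factors (2.98%), TGTGGT of RUNX factors (11.0%) and the E-box CAGGTG of TCF3 (17.5%). That these letters are missing from 250 bases says nothing about binding of the factors elsewhere in the domains.

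The sharing of peaks between the lines was then compared with the whole lists. At the 4 loci, 46 of 71 REH peaks had a 697 peak over them, which is 64.8% (95% Wilson interval 53.2 to 74.9, counting error only), against 64.1% of all REH peaks. In 697, 45 of 71 peaks had a REH peak over them, or 63.4% (51.8 to 73.6), against 38.9% of all 697 peaks. Several peaks of a line can lie under the same peak of the other line, and 41 of the 71 peaks of 697 lie at EBF1. The peaks are therefore not independent, and the intervals may be too narrow. As counts only, the peaks of 697 at these loci were shared more often than its list as a whole, while those of REH were shared about as often. They were also longer, with a median of 1347 bp against 871 bp for all 697 peaks (REH, 1109 and 1060 bp), and the part of length in this difference was not tested. By gene, 3 of 15 REH peaks were shared at PAX5, 33 of 40 at EBF1, 8 of 13 at FOXO1 and 2 of 3 at POU2AF1. In 697 the counts were 5 of 6, 24 of 41, 13 of 17 and 3 of 7. PAX5 had the lowest share of shared peaks in REH, with 12 unshared peaks, of which 11 were shorter than 2 kb.

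Among peaks of at least 2 kb, 5 of 21 in REH had no 697 peak over them (23.8%), against 13.5% of all REH peaks of that length. In 697, 3 of 24 lacked a REH peak (12.5%), against 27% of all. The REH peaks were the 1 at PAX5, 3 at EBF1 and 1 at FOXO1 described above, and the 697 peaks were 1 each at EBF1, FOXO1 and POU2AF1. With so few peaks these shares describe the loci only. Peaks of 10 kb or more numbered 3 in REH, at the 5′ ends of PAX5 and EBF1 and inside EBF1, and 6 in 697, 1 at the 5′ end of PAX5 and 5 at EBF1; such peaks make up 0.587% of the REH list and 0.444% of the 697 list.

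**Figure D4:**
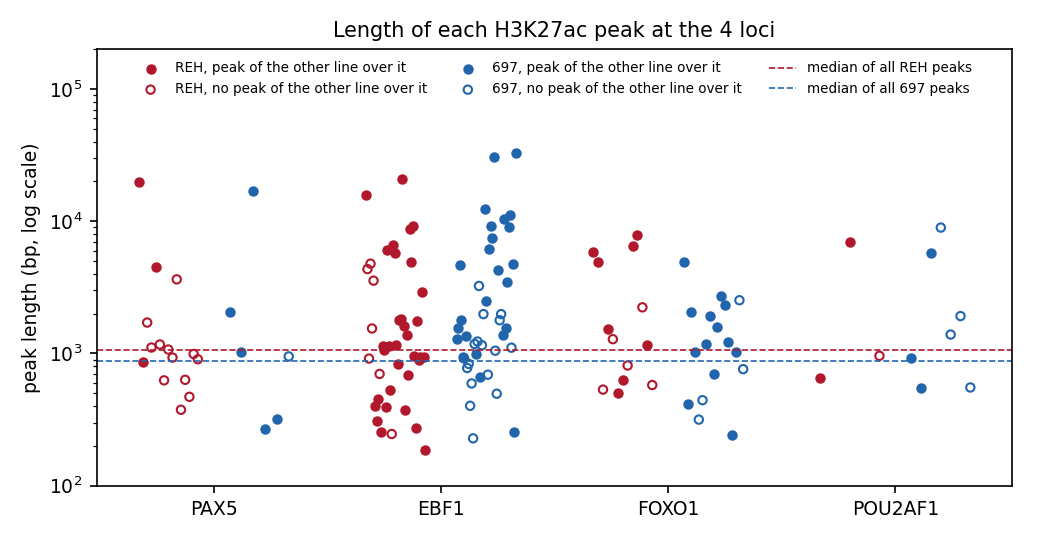
Length of each H3K27ac peak (bp, log scale) at the 4 loci in REH (red) and 697 (blue), 1 library each, in order along the gene; filled points have a peak of the other line over them, open points do not, and dashed lines mark the median of the whole list. The longest peaks are 32583 and 30872 bp in 697 at EBF1, and most REH peaks at PAX5 are open points.

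The bases covered in both lines amounted to 18454 bp at PAX5, 86944 bp at EBF1, 18929 bp at FOXO1 and 6671 bp at POU2AF1. As a share of the bases covered in either line, this was 46.1%, 43.3%, 46.5% and 30.4%. Bases covered in REH alone came to 20533 bp at PAX5 against 1071 bp in 697 alone, and at POU2AF1 to 1905 bp against 13362 bp. At EBF1 they came to 31166 bp in REH alone and 82869 bp in 697 alone, and at FOXO1 to 15342 and 6480 bp, so that each line held stretches of its own at both genes. The lists give no copy number and no tag count for a stretch, so a gain or loss of DNA at a locus and a change in acetylation cannot be told apart here.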

How the data were processed

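H3K27ac ChIP-seq and input libraries of REH and 697 were sequenced, and Bowtie (Bowtie2 in the submitters' processing notes, its version not given in the sources used here) was used by the authors to map them to hg19. Per the file headers, peaks were called with MACS 2.1.0.20150731 in broad mode per line with its input as control, duplicates limited to 1 tag and q-value cutoffs of 0.05 (strong) and 0.1 (broad); the Methods name an older MACS. For each peak the authors deposited its position and length, the mean pileup signal, the fold enrichment as a linear ratio, and p-values and q-values on the −log10 scale. Positions and lengths carry the results. The deposited scores were used only for 2 alternatives, because they were hardly related between the lines or to peak length. Over 28626 REH peaks paired with the 697 peak that shares most bases, Spearman's rho was 0.03 for pileup, 0.02 for −log10(p) and 0.39 for length, as a description. Within a list, −log10(p) and length had a rho of 0.09 in REH and 0.07 in 697. Whether each score belongs to the peak in its line of the list is therefore unsure.

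The loci were the gene bodies on hg19, given in whole kb, plus 10 kb on each side. Covered bases were counted inside the window. Genome tiles ran over the autosomes and chromosome X to the last peak. The peaks named were the longest of each locus and line, those within 2 kb of the 5′ end and those of at least 2 kb without a peak of the other line over them; further peaks in the text were chosen after their values were seen. The members, lists and rules were chosen with earlier results of these data known. No test was run, since each line has 1 library. Other B-lineage genes were not analysed here, since the reference given is on GRCh38; strand, gene identifiers and promoter sequences come from it (GENCODE v44 and RefSeq) and were kept apart from the peaks. The interval functions were checked on simulated data. The tools were matplotlib 3.10.9, pandas 2.3.3, numpy 2.4.6 and scipy 1.17.1 under Python 3.11.15. Alternatives tried were a minimum −log10(p) of 10, a 5% FDR, peaks of at least 1000 bp, merging within 1000 bp, flanks of 0 and 50 kb, scaling by all covered bases, equal peak numbers by length, a 50% overlap and, added after seeing the data, whole peak lengths.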

Additional observations from a re-analysis of the deposited data

How the results depend on the processing

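Of 56 alternative values for the number of called loci, the 4 ratios and the shared percents, 47 moved by less than the counting error or, for a count, by less than 1.5 times. The error of a ratio treats each covered kb as 1 count, but kb under the same peak are not independent. All alternatives also reuse the same libraries, so this error is a yardstick only and no measure of their spread. The 47 include the PAX5 ratios of 2.36, 2.06 and 2.98, which pass the threshold of 2. The ratio of REH over 697 kept its direction under all 8 alternatives that gave a ratio at PAX5 (1.81 to 2.98), FOXO1 (1.17 to 2.02) and POU2AF1 (0.30 to 0.64), and under 7 of 9 at EBF1. At EBF1 it turned to 1.04 as a share of all covered bases and to 25.0 with a −log10(p) of at least 10, a threshold that left 8 REH peaks and 1 697 peak there and none at PAX5 or POU2AF1 in either line. At FOXO1 it left 0 REH peaks and 2 697 peaks, over 1.87% of the window, so that this locus was then called with 697 higher, the opposite of its direction in the full lists. The number of called loci rose from 1 to 2 under that threshold, without flanks, as a share of all covered bases and with equal peak numbers by length, and was 1 otherwise. The share of genome tiles called was not computed under these alternatives, so the rise has no background to be read against. The percent of REH peaks shared at the loci fell to 50% with an FDR of at most 5% and to 12.5% with the p-value threshold, and that of 697 peaks to 33.3% with the latter; removing peaks of the other list lowers such a percent by construction. Values under the p-value and FDR thresholds rest on deposited scores that may not belong to their peaks. Without any flank the ratio at PAX5 was 2.36, past the threshold of 2, as it was with equal peak numbers (2.06) and as a share of all covered bases (2.98). It was 1.81 to 1.95 under the other 5 alternatives. No paired analysis was possible because each line has 1 library.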

Other observations

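The windows end 10 kb from each gene, and the peaks did not. In the 40 kb upstream of the POU2AF1 window, 697 had 8 peaks over 61.0% of the bases, the longest 9866 bp, and REH had 5 peaks over 28.9%, the longest 5736 bp. When peaks no more than 5 kb apart were joined, 9 peaks of 697 formed a run of 40011 bp between positions -48.4 and -8.36 kb from the 5′ end of the gene, and 4 REH peaks formed a run of 12086 bp there. In the 40 kb beyond the 3′ side of the EBF1 window, peaks covered 32.1% of the bases in 697, in part by the 32583 bp peak that crosses the window edge, and 8.05% in REH. Beyond the 3′ side of the PAX5 window REH had 3 more peaks over 9.79% of 40 kb and 697 had none, so that the 697 stretch without peaks went on past the window. Upstream of PAX5 each line had 4 peaks, over 9.83% in REH and 14.1% in 697. The 697 value comes in part from a peak of 2065 bp that crosses the window edge and is also counted in the window. At FOXO1 both sides were sparse, with at most 7.77% of the bases under peaks in either line.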
